A study of Rattus norvegicus with 12 samples.

Results

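The mast cell granule proteases are described here by 7 genes, Cpa3, Cma1, Mcpt1, Mcpt1l1, Mcpt10, Tpsab1 and Tpsb2, in 12 whole-lung samples of male Sprague-Dawley rats. The genes were taken by name: each probe set that the platform annotation assigns to 1 of these symbols was used. Each gene had 1 such probe set, so that 7 probe sets stand for 7 of the 14217 genes that the array measures with a probe set of a single symbol. The animals had been operated on as juveniles of 91 ± 9 g body weight, and their lungs were taken 9 weeks later. The title of the study names its question as the role of mast cells in this form of pulmonary hypertension, which follows disease of the left heart.

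There were 4 groups of 3 rats. CHF+Keto rats carried a clip around the aorta above the coronary arteries, which brings on heart failure (ejection fraction preserved) and, from it, pulmonary hypertension. They also drank ketotifen, an antihistamine that stabilizes mast cells, in a daily amount of 1 mg per kg from day 1 after surgery. CHF rats carried the clip without the drug. Sham+Keto rats were operated on without a clip and drank ketotifen, and Sham rats had neither clip nor drug. The drug-free rats are called placebo in the sample labels and untreated in the design text. All rats had surgery, so no group shows an unoperated lung.

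Mast cells are resident immune cells that store proteases in granules and release them on activation, for example when antigen crosslinks IgE on the receptor FcεRI. Chymases are serine proteases, many but not all of chymotrypsin-like specificity, and some can form angiotensin II and activate matrix metalloproteases. Tryptases are serine proteases of trypsin-like specificity held together by heparin, and carboxypeptidase A3 trims the ends of peptides. Protease activity was not measured here. In the rat lung, mast cells lie mainly around airways and vessels. Rat chymases are encoded in an expanded gene cluster, and mucosal and connective tissue mast cells store different sets of these proteases. RefSeq lists the older name rMCP-1 as a synonym of both Mcpt1 and Mcpt1l1, so neither gene is assigned here to a mast cell subtype.

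The 7 genes lie at 3 places in the rat genome (RefSeq, assembly GRCr8). Cma1, Mcpt1, Mcpt1l1 and Mcpt10 are on chromosome 15, where Mcpt1 and Mcpt1l1 are neighbours, Mcpt9 lies before Mcpt1, and Mcpt10 stands between Mcpt1l1 and the cathepsin G gene Ctsg. Tpsab1 and Tpsb2 are neighbours on chromosome 10, and Cpa3 is on chromosome 2 between Gyg1 and Cpb1. RefSeq promoter sequence was found for 6 of the 7 genes, all but Mcpt10. The windows run from 250 bases before the start of the gene to 50 bases after it. Those of 5 genes are shown because each holds the pentamer GATAA, a core that GATA transcription factors such as GATA2, a regulator of mast cell genes, can bind. GATAA and its reverse complement TTATC are in capitals, and sequences read 5′ to 3′ on the strand of the gene.
Cpa3: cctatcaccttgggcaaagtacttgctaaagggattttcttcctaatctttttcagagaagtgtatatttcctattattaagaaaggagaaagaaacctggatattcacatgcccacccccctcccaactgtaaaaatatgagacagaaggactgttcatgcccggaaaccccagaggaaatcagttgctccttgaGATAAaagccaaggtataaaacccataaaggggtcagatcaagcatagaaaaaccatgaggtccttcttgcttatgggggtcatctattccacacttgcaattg
Cma1: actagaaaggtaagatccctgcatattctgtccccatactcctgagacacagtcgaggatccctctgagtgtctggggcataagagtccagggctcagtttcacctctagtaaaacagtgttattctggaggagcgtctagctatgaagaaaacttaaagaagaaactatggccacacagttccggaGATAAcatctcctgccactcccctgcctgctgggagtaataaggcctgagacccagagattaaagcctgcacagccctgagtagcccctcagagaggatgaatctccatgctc
Mcpt1: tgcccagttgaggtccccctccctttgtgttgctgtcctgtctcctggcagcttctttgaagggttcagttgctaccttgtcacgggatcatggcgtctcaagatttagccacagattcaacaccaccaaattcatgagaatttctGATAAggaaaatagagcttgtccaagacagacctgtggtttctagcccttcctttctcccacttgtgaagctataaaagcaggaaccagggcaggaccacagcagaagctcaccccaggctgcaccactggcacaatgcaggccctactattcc
Mcpt1l1: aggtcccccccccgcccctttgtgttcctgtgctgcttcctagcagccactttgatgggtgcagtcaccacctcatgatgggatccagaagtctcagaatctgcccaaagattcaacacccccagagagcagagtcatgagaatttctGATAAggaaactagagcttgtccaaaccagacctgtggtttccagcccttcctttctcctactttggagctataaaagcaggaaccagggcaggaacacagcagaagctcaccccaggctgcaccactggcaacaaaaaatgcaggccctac
Tpsab1: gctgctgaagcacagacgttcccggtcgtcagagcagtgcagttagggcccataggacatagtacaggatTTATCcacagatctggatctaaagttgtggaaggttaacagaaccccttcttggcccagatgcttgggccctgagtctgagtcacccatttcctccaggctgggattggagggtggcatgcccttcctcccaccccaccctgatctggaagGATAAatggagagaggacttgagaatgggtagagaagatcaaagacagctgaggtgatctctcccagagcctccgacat
These windows are chr2:104673188-104673487 (minus strand) for Cpa3, chr15:33390084-33390383 (minus) for Cma1, chr15:33841356-33841655 (plus) for Mcpt1, chr15:33876846-33877145 (minus) for Mcpt1l1 and chr10:14867253-14867552 (minus) for Tpsab1, all in GRCr8. On either strand, GATAA occurred in 5 of the 6 members' windows and in 26.5% of all 33469 windows of this length. The hexamer CACATG, an E-box searched on both strands, occurred in 2 of the 6, Cpa3 and Tpsb2, and in 14.0% of all. The TATA box letters TATAAA, searched on the gene strand, occurred in 3 of the 6, Cpa3, Mcpt1 and Mcpt1l1, and in 8.80% of all. The first base of GATAA lay 54 bases before the start in Cpa3, 63 in Cma1, 104 in Mcpt1, 102 in Mcpt1l1 and 29 in Tpsab1. The Mcpt1 and Mcpt1l1 windows were identical at 245 of 283 aligned bases (86.6%), while the other pairs were 56.7% to 63.5% identical. A match to such short letters describes the window and does not show that a factor binds there.

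Across both drug arms, all 7 protease genes were higher in lungs of rats with heart failure than in lungs of sham-operated rats. The average surgery effect, the mean of the CHF minus Sham and the CHF+Keto minus Sham+Keto differences, was 2.07 to 3.22 on the log2 scale for the 4 genes of the chymase locus, 2.58 for Cpa3, and 1.57 and 1.42 for the tryptases Tpsab1 and Tpsb2. All 7 rose by limma's moderated test with an adjusted p under 0.05, the threshold used throughout, in which 11% of the 16536 probe sets tested were called higher and 21% were called in either direction. Values are the deposited log2 signals, in which 4 and below is near the background of the array. In whole-lung RNA, more mast cells and more protease RNA per mast cell cannot be told apart. The plot of all 12 arrays for each gene shows these values.

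**Figure D1:**
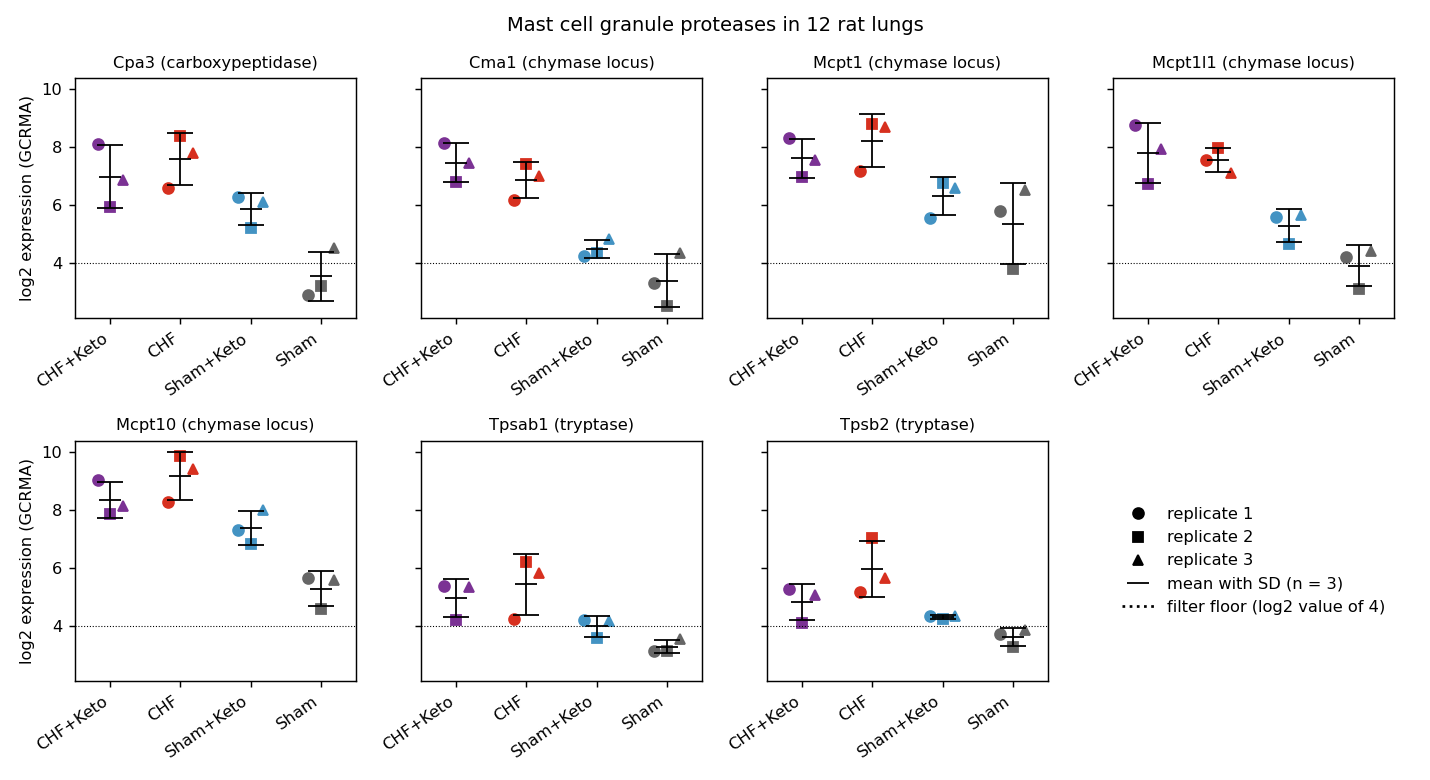
Log2 signal of the 7 protease genes on each of the 12 arrays (points) with the mean and SD of each group of 3 rats; the y axis is the deposited log2 signal and the broken line marks a log2 value of 4. For every gene the 3 CHF points lie above the 3 Sham points, and the CHF+Keto and CHF points overlap.

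Cpa3 encodes carboxypeptidase A3, the granule exopeptidase of mast cells. Its log2 signal was 8.12, 5.95 and 6.87 in CHF+Keto lungs, 6.60, 8.38 and 7.78 in CHF lungs, 6.27, 5.22 and 6.10 in Sham+Keto lungs, and 2.91, 3.22 and 4.52 in Sham lungs. The Sham lungs were the lowest 3 of the 12, and the Sham+Keto lungs reached the level of the lowest CHF+Keto lung. Averaged over the drug arms Cpa3 rose by 2.58 ± 0.44 (SE; limma adjusted p = 0.00635).

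Cma1 encodes the α-chymase, the chymase form that most mammals share. Signals of Cma1 on the log2 scale were 8.15, 6.78 and 7.46 in CHF+Keto lungs, 6.18, 7.40 and 7.003 in CHF lungs, 4.25, 4.35 and 4.84 in Sham+Keto lungs, and 3.31, 2.53 and 4.36 in Sham lungs. All 6 lungs of clipped rats lay above all 6 lungs of sham-operated rats. The share of all probe sets with this pattern was not counted, here or for the genes below. Cma1 rose by 3.22 ± 0.34 on average (limma adjusted p = 0.00103).

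Mcpt1 and Mcpt1l1 encode closely related rodent chymases. Mcpt1 had log2 signals of 8.31, 6.97 and 7.56 in CHF+Keto lungs, 7.16, 8.80 and 8.68 in CHF lungs, 5.57, 6.78 and 6.60 in Sham+Keto lungs, and 5.78, 3.80 and 6.51 in Sham lungs. Every clipped rat again lay above every sham-operated rat, but the Sham group spread widely because Sham rat 2 was far below the other two. Mcpt1 rose by 2.07 ± 0.48 on average (limma adjusted p = 0.0160). Mcpt1l1 had log2 signals of 8.75, 6.71 and 7.94 in CHF+Keto lungs, 7.56, 7.96 and 7.12 in CHF lungs, 5.59, 4.64 and 5.65 in Sham+Keto lungs, and 4.22, 3.10 and 4.41 in Sham lungs. The 4 groups of Mcpt1l1 formed a pair of overlapping clipped groups, then Sham+Keto, then Sham, with no overlap below the clipped lungs. Its average surgery effect was 3.07 ± 0.36 (limma adjusted p = 0.00187).

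Mcpt10 encodes a further serine protease of the same locus. Mcpt10 had log2 signals of 9.03, 7.85 and 8.14 in CHF+Keto lungs, 8.26, 9.85 and 9.40 in CHF lungs, 7.31, 6.81 and 7.98 in Sham+Keto lungs, and 5.67, 4.60 and 5.59 in Sham lungs. It was above a log2 value of 4 on all 12 arrays, the only member of which this holds, and Sham+Keto rat 3 lay above the lowest CHF+Keto rat. The average surgery effect was 2.43 ± 0.33 (limma adjusted p = 0.00332, 5.38-fold).

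Tpsab1 and Tpsb2 encode the mast cell tryptases. Tpsab1 had log2 signals of 5.36, 4.21 and 5.34 in CHF+Keto lungs, 4.25, 6.21 and 5.83 in CHF lungs, 4.20, 3.58 and 4.17 in Sham+Keto lungs, and 3.15, 3.15 and 3.54 in Sham lungs. All 6 lungs of clipped rats lay above all 6 lungs of sham-operated rats, though the lowest clipped lung stood only just above the highest Sham+Keto lung. Tpsab1 rose by 1.57 ± 0.33 on average (limma adjusted p = 0.0119). Tpsb2 had log2 signals of 5.27, 4.10 and 5.06 in CHF+Keto lungs, 5.17, 7.04 and 5.66 in CHF lungs, 4.34, 4.23 and 4.33 in Sham+Keto lungs, and 3.71, 3.27 and 3.87 in Sham lungs. CHF+Keto rat 2 lay below all 3 Sham+Keto lungs, so these groups overlapped. The average surgery effect of Tpsb2 was 1.42 ± 0.31 (limma adjusted p = 0.0127).

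Both tryptases were under a log2 value of 4 on all 3 Sham arrays, Cpa3 and Cma1 on 2 of the 3 and Mcpt1 and Mcpt1l1 on 1, so the sizes of their differences from Sham rest partly or wholly on background signal. Tpsab1 passed the filter on low values, a log2 value of 4 in at least 3 arrays, only with the help of clipped lungs, since 2 arrays of sham-operated rats reached it. With no filter on low values, 7 of 7 members were still called. The count was also 7 when any 1 of the 12 arrays was left out. It was 2 without the 3 arrays of largest β-actin 3′ minus 5′ difference, Sham rats 2 and 3 and Sham+Keto rat 2, 4 without Sham rats 2 and 3, and 1 without Sham rat 3 and Sham+Keto rats 1 and 2, which carried heart muscle RNA. Without those last 3 arrays the differences were 1.47 for Tpsb2 to 3.28 for Cma1, and the number of probe sets called in the whole table was 60 instead of 3467.

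In drug-free rats, 4 of the 7 protease genes rose with heart failure. CHF minus Sham differences were 4.04 ± 0.62 for Cpa3, 3.88 ± 0.47 for Mcpt10, 3.63 ± 0.51 for Mcpt1l1 and 3.46 ± 0.48 for Cma1 (SE, 3 against 3 rats), with limma adjusted p of 0.0327, 0.0144, 0.0247 and 0.0241 in that order. Of all probe sets, 0.145% were called higher in this comparison. Mcpt1 had a difference of 2.85 (95% interval 1.36 to 4.34, limma adjusted p = 0.102). Tpsb2 differed by 2.34 (1.38 to 3.30, limma adjusted p = 0.0636) and Tpsab1 by 2.15 (1.11 to 3.19, limma adjusted p = 0.0915), so neither tryptase passed. For all 7 genes the lowest CHF lung was above the highest Sham lung, which 12.7% of all probe sets showed. An unadjusted p under 0.05 was found for 7 of 7, beside 20.1% of all. The count of 4 rested on single arrays: it was 0 without Sham rat 2 or CHF rat 2, 1 without CHF rat 3 or CHF+Keto rat 3, 2 without Sham rat 3, 3 without Sham+Keto rat 1 or 3, and 7 without Sham rat 1. Without CHF rat 1 it was 4, with Tpsab1 called (2.74, limma adjusted p = 0.0239) and Mcpt1l1 not (3.63, limma adjusted p = 0.0696). It was 1 with no filter on low values, where Mcpt10 was called, and 0 when only the 6 arrays compared were fitted (adjusted p = 0.268 for the 4 genes).

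**Figure D2:**
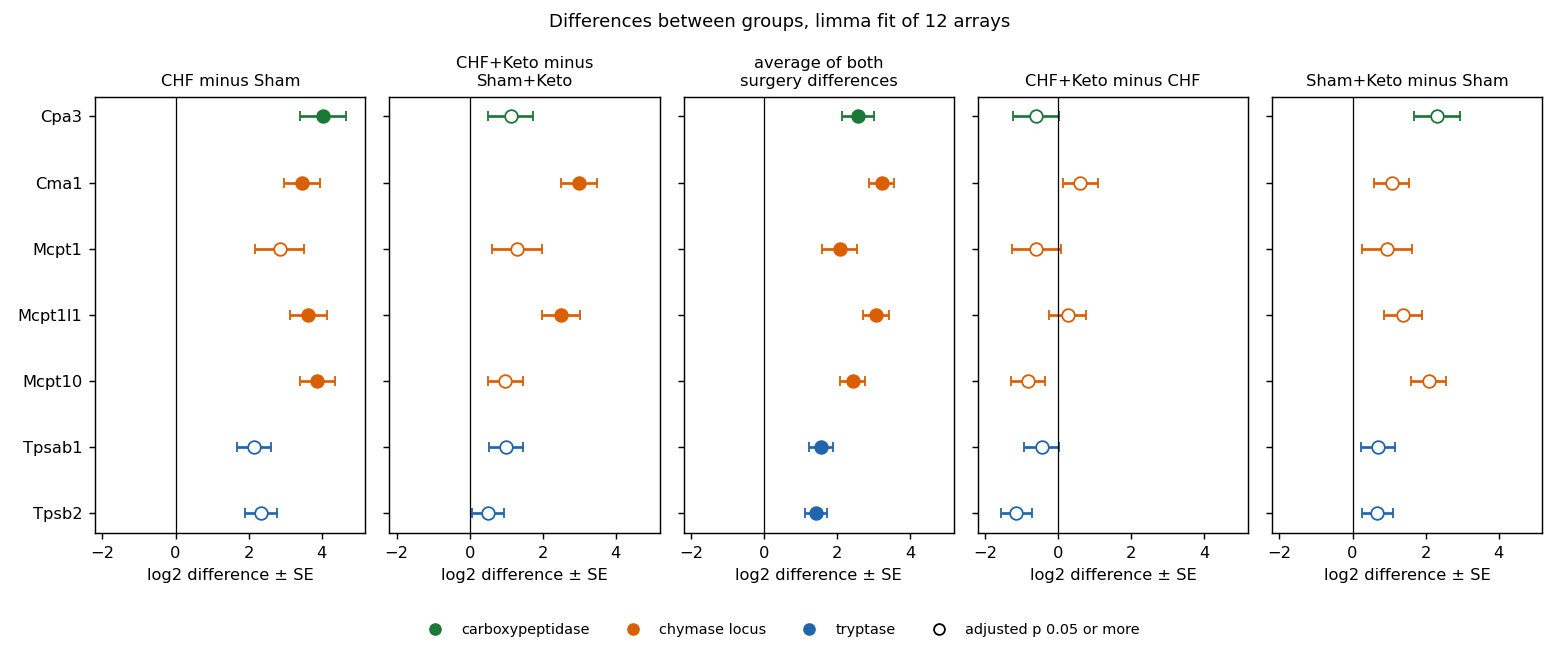
Log2 differences between groups for the 7 genes (points) with standard errors from the limma fit of 12 arrays, 1 panel per comparison; filled points have an adjusted p under 0.05 and colours mark the carboxypeptidase, the chymase locus and the tryptases. All 7 points are filled for the average surgery effect, 4 for CHF minus Sham, Cma1 and Mcpt1l1 for CHF+Keto minus Sham+Keto, and none in the 2 panels for ketotifen.

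Among rats on ketotifen, 2 chymase genes were higher with heart failure. CHF+Keto minus Sham+Keto was 2.99 ± 0.48 for Cma1 (limma adjusted p = 0.00579, 7.92-fold) and 2.50 ± 0.51 for Mcpt1l1 (limma adjusted p = 0.0146, 5.67-fold). These 2 of the 7 rose, where 6.36% of all probe sets were called higher. The other 5 differences were 1.30 for Mcpt1, 1.11 for Cpa3, 0.99 for Tpsab1, 0.97 for Mcpt10 and 0.51 for Tpsb2, with limma adjusted p from 0.180 to 0.455. The groups did not overlap for Cma1, Mcpt1, Mcpt1l1 and Tpsab1, a pattern that 19.2% of all probe sets showed in this direction. Cma1 and Mcpt1l1 were called whichever single array was left out, and with array weights Tpsab1 was called too (1.22, limma adjusted p = 0.0241), 3 of 7. Without Sham rat 3 and Sham+Keto rats 1 and 2 neither passed (2.62 and 2.15, limma adjusted p = 0.183 and 0.253), and without the 3 arrays of largest 3′ minus 5′ difference Mcpt1l1 did not (2.18, limma adjusted p = 0.0517).

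The surgery difference was smaller on ketotifen for all 7 genes, but the test of that change called none of them. The change, (CHF+Keto minus Sham+Keto) minus (CHF minus Sham), was -2.92 ± 0.88 for Cpa3 (limma adjusted p = 0.260), -2.91 ± 0.67 for Mcpt10 (limma adjusted p = 0.132) and -1.83 ± 0.62 for Tpsb2 (limma adjusted p = 0.322). It was -1.55 for Mcpt1, -1.16 for Tpsab1, -1.13 for Mcpt1l1 and -0.47 for Cma1. By limma 0 of 7 passed, where 0.369% of all probe sets did. At an unadjusted p under 0.05 it was 3 of 7, where 10.8% of all did. Mcpt10 was called when CHF rat 1 was left out (-3.37, limma adjusted p = 0.0243), and Mcpt10 and Tpsb2 were called with array weights. The same change equals the ketotifen difference in clipped rats minus that in sham-operated rats. The ketotifen difference was positive for 7 of 7 genes in sham-operated rats, partly from Sham signals near background. In clipped rats it was positive for 2 and negative for 5.

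In clipped rats, no protease gene was called between ketotifen and no drug. CHF+Keto minus CHF was -1.14 for Tpsb2 (95% interval -2.11 to -0.18, limma adjusted p = 0.213), -0.83 for Mcpt10, -0.61 for Cpa3 (-1.98 to 0.76), -0.60 for Mcpt1 and -0.46 for Tpsab1. The difference was positive for 2 chymases, 0.25 for Mcpt1l1 and 0.60 for Cma1 (-0.46 to 1.67). The sign of Mcpt1l1 turned without CHF+Keto rat 1 (-0.22) and with CHF+Keto arrays 1 and 3 averaged (-0.017). By limma 0 of 7 passed, where 1.22% of all probe sets did, and 1 of 7, Tpsb2, had an unadjusted p under 0.05, where 17.1% of all did. The groups overlapped for all 7 genes. CHF+Keto rat 2 was the lowest of its group for each of the 7. With array weights 2 of 7 were called, Tpsb2 at -1.45 (limma adjusted p = 0.00945) and Mcpt10 at -1.11 (limma adjusted p = 0.0377). An interval that includes 0 does not show that the drug left the gene as it was.

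In sham-operated rats, all 7 values were higher on ketotifen than without it, and none passed the test. Sham+Keto minus Sham was 2.32 ± 0.62 for Cpa3 (limma adjusted p = 0.216), 2.08 ± 0.47 for Mcpt10 (limma adjusted p = 0.147) and 1.39 for Mcpt1l1. It was 1.08 for Cma1, 0.95 for Mcpt1, 0.70 for Tpsab1 and 0.68 for Tpsb2. By limma 0 of 7 were called, where 0.0847% of all probe sets were, and 4 of 7 had an unadjusted p under 0.05, where 14% of all did. The 3 Sham+Keto lungs lay above the 3 Sham lungs for Cpa3, Mcpt1l1, Mcpt10, Tpsab1 and Tpsb2, which 7.5% of all probe sets showed, while the groups overlapped for Cma1 and Mcpt1. The Sham means of Cpa3, Cma1, Mcpt1l1, Tpsab1 and Tpsb2 were under a log2 value of 4, so these sizes rest on background on that side. Mcpt10 was called without Sham rat 1 (2.27, limma adjusted p = 0.0445) and with array weights (2.07, limma adjusted p = 0.0329).

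**Figure D3:**
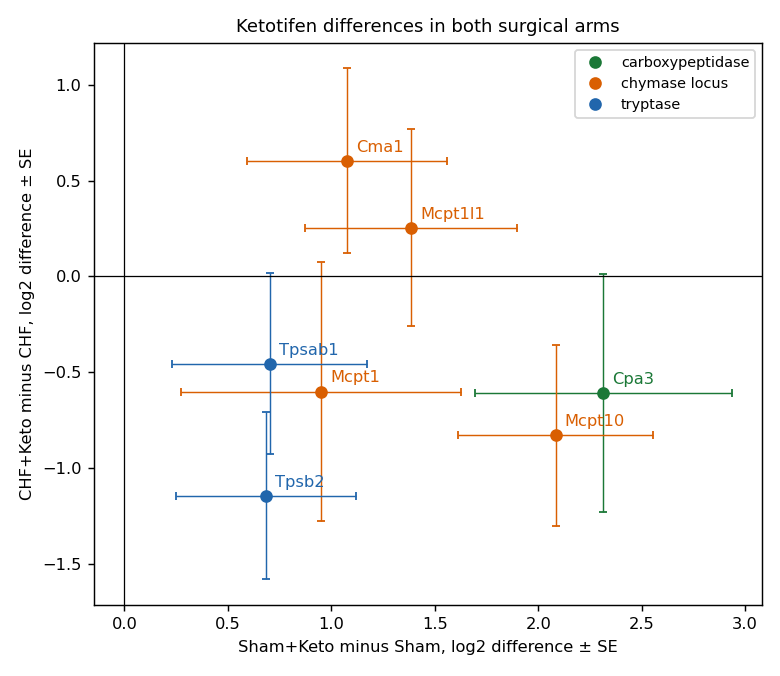
Ketotifen minus no drug on the log2 scale, in clipped rats (y axis, CHF+Keto minus CHF) against sham-operated rats (x axis, Sham+Keto minus Sham), for each of the 7 genes (points) with standard errors from the limma fit; colours mark the carboxypeptidase, the chymase locus and the tryptases. The difference was positive for 7 of 7 genes in sham-operated rats and for Cma1 and Mcpt1l1 in clipped rats, and no point had an adjusted p under 0.05.

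The levels of each gene therefore had the same outer order. Sham had the lowest mean for all 7 genes, and Sham+Keto the next lowest. The top place belonged to CHF for Cpa3, Mcpt1, Mcpt10, Tpsab1 and Tpsb2 and to CHF+Keto for Cma1 and Mcpt1l1, but these neighbours overlapped for every gene. Group means with SD were 6.98 ± 1.09 in CHF+Keto, 7.59 ± 0.91 in CHF, 5.86 ± 0.56 in Sham+Keto and 3.55 ± 0.85 in Sham for Cpa3. For Cma1 they were 7.46 ± 0.68 in CHF+Keto, 6.86 ± 0.62 in CHF, 4.48 ± 0.32 in Sham+Keto and 3.40 ± 0.91 in Sham. For Tpsb2 they were 4.81 ± 0.62 in CHF+Keto, 5.95 ± 0.97 in CHF, 4.30 ± 0.06 in Sham+Keto and 3.62 ± 0.31 in Sham.

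The genes of the chymase locus, Mcpt10 among them, were set against tryptases and carboxypeptidase. Differences of each gene from its own Sham mean were used, because levels of different probe sets cannot be compared. The 4 genes of the chymase locus stood, on average, 3.31 ± 0.74 above Sham in CHF+Keto lungs, 3.46 ± 0.61 above it in CHF lungs and 1.37 ± 0.35 above it in Sham+Keto lungs (SD over 3 rats, log2). The 2 tryptases stood 1.44 ± 0.64 above Sham in CHF+Keto lungs, 2.24 ± 0.96 above it in CHF lungs and 0.69 ± 0.20 above it in Sham+Keto lungs. For the tryptases and Cpa3 together these means were 2.10, 2.84 and 1.23 in the same order of groups. Cpa3 on its own stood 3.43 above Sham in CHF+Keto lungs, 4.04 in CHF lungs and 2.32 in Sham+Keto lungs, above the chymase locus mean in all 3 groups. Both tryptases were under a log2 value of 4 on every Sham array, so their differences from Sham are bounded by background and are not ranked against those of the chymase locus.

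The gap between the chymase locus and the other 3 genes was also taken within each lung. Chymase locus minus tryptases and Cpa3, relative to Sham, was 1.30, 1.32 and 1.01 in CHF+Keto lungs, 0.94, 0.29 and 0.62 in CHF lungs, -0.27, 0.29 and 0.39 in Sham+Keto lungs, and 0.48, -0.71 and 0.23 in Sham lungs. The 3 CHF+Keto lungs held the 3 highest values of the 12 and did not overlap with CHF lungs. Against the tryptases alone, the gap was 2.20, 1.88 and 1.53 in CHF+Keto lungs and 1.54, 0.84 and 1.27 in CHF lungs, so that these groups overlapped once Cpa3 was left out. With Mcpt10 left out instead, the gap to the tryptases and Cpa3 was 1.41, 1.33 and 1.15 in CHF+Keto lungs. In CHF lungs it was then 0.88, 0.10 and 0.43. These gaps carry the same background limit of the tryptases. No p is given, since the genes and classes were chosen with earlier results of these data known.

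**Figure D4:**
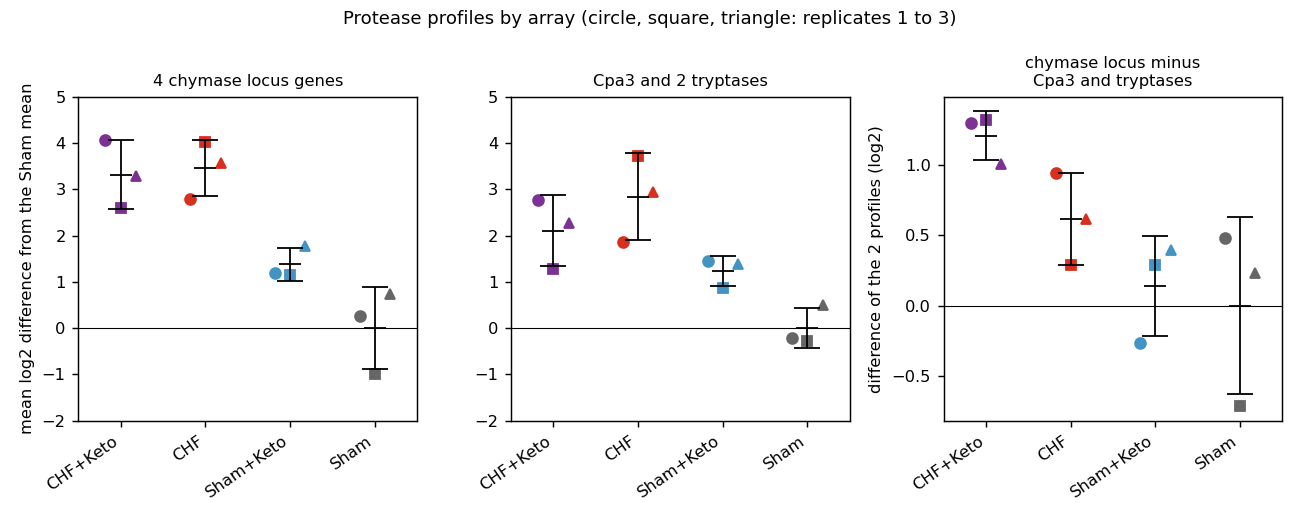
Mean log2 difference from the Sham mean on each of the 12 arrays (points, with group mean and SD of 3 rats) for the 4 genes of the chymase locus, for Cpa3 and the 2 tryptases together, and for the first profile minus the second. The last panel has its 3 highest points in CHF+Keto lungs, between 1.01 and 1.32.

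Lungs that were high for 1 protease tended to be high for the others. Pearson's r between members over the 12 arrays, which share groups and libraries, was 0.784 (Cma1 with Tpsb2) to 0.967 (Cma1 with Mcpt1l1). The closest partner was Mcpt10 for Cpa3 (r = 0.961) and for Mcpt1 (0.897), Cpa3 for Tpsab1 (0.930), and Tpsab1 for Tpsb2 (0.923). With group means removed, r remained between 0.532 (Mcpt1l1 with Tpsab1) and 0.905 (Cma1 with Mcpt1). CHF rat 2 had the highest signal of all 12 for Cpa3, Mcpt1, Mcpt10, Tpsab1 and Tpsb2, and CHF+Keto rat 1 for Cma1 and Mcpt1l1. Sham rat 2 was the lowest for 6 of the 7, all but Cpa3.

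One further probe set is annotated to Mcpt10 together with Mcpt8, Mcpt9 and Mcpt8l2 and was not counted as a member. Its log2 signal was 8.98, 7.997 and 8.53 in CHF+Keto lungs, 8.73, 9.92 and 9.66 in CHF lungs, 8.17, 7.57 and 8.14 in Sham+Keto lungs, and 6.27, 6.29 and 6.84 in Sham lungs. It followed Mcpt10 (r = 0.977) and Cpa3 (r = 0.978) over the 12 arrays and rose by 2.97 in CHF against Sham lungs (limma adjusted p = 0.0107). The probe sets of Mcpt3, Mcpt4, Mcpt8 and Mcpt9 alone were not kept by the filter. Mcpt8, a basophil protease in mice, had log2 signals between 3.14 and 3.66 on all 12 arrays. Members of this family share sequence, so that a probe set may take up RNA of a relative.

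Of the granzymes, serine proteases of cytotoxic lymphocytes, Gzma, Gzmb, Gzmk and Gzmm were kept. Over the 22 names listed as other granule serine proteases, 10 are on the array, 4 were kept, and 0 were called in any of the 6 comparisons. Their median average surgery effect was -0.05, beside 2.43 for the 7 members and -0.02 for all probe sets.

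Other mast cell genes did not move as one with the proteases. Of 17 listed receptors and identity genes 12 are on the array and 6 were kept. In CHF against Sham lungs 1 of the 6 rose, where 0.145% of all probe sets did. This was Fcer1a, the IgE-binding chain of FcεRI, by 3.50 ± 0.36 (limma adjusted p = 0.0102). Fcer1a had log2 signals of 6.36, 5.38 and 5.90 in CHF+Keto lungs, 5.61, 7.03 and 6.33 in CHF lungs, 5.04, 4.49 and 4.48 in Sham+Keto lungs, and 3.12, 2.65 and 2.68 in Sham lungs. No Fcer1a value of a clipped lung overlapped with any of a sham-operated lung, and Sham+Keto lay wholly above Sham. By pairs of groups, 12.7% of all probe sets had CHF wholly above Sham, 19.2% CHF+Keto above Sham+Keto and 7.5% Sham+Keto above Sham. Every Sham value of Fcer1a was under a log2 value of 4, so its differences from Sham rest on background on that side. In the average surgery effect Fcer1a and the shared signalling chain Fcer1g rose (2.35 and 1.29, limma adjusted p = 0.00114 and 0.0129).

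Of the same 6 genes 1 fell, where 9.92% of all probe sets did. Gata2, whose product regulates mast cell genes and is also made in endothelial and blood cells, fell by 1.28 in the average surgery effect (limma adjusted p = 0.0116). Its log2 signal was 7.77, 6.92 and 7.47 in CHF+Keto lungs, 8.47, 9.10 and 9.40 in CHF lungs, 9.32, 9.74 and 8.80 in Sham+Keto lungs, and 8.85, 10.22 and 9.87 in Sham lungs. The CHF+Keto lungs were the 3 lowest of the 12. Hdc, histidine decarboxylase, which makes histamine, fell by 0.67 (limma adjusted p = 0.0354). Hdc averaged 6.69 in CHF+Keto, 6.55 in CHF, 7.30 in Sham+Keto and 7.28 in Sham lungs. Its highest signal was in Sham rat 2 (7.84), the lowest lung for 6 of the 7 proteases. Kit, the stem cell factor receptor, averaged 5.05 in CHF+Keto, 5.52 in CHF, 5.64 in Sham+Keto and 5.51 in Sham lungs and was not called (CHF minus Sham 0.01, limma adjusted p = 0.994). Its Sham signals spread widely, at 6.59, 3.91 and 6.01. Which lung cells gave the Hdc and Kit signals was not tested. Ms4a2, the β chain of FcεRI, averaged 3.90 in CHF lungs and 2.91 in Sham lungs and was not kept by the filter. Slc18a2 and Il1rl1, also not kept, averaged 4.02 and 3.16 in CHF lungs, against 2.30 and 2.61 in Sham lungs. On ketotifen, Slc18a2 averaged 2.85 in CHF+Keto and 2.92 in Sham+Keto lungs, and Il1rl1 3.77 and 2.74. Hpgds, not kept either, averaged 2.41 in CHF lungs and 2.29 in Sham lungs. The plot of mast cell genes sets the kept genes beside the proteases.

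**Figure D5:**
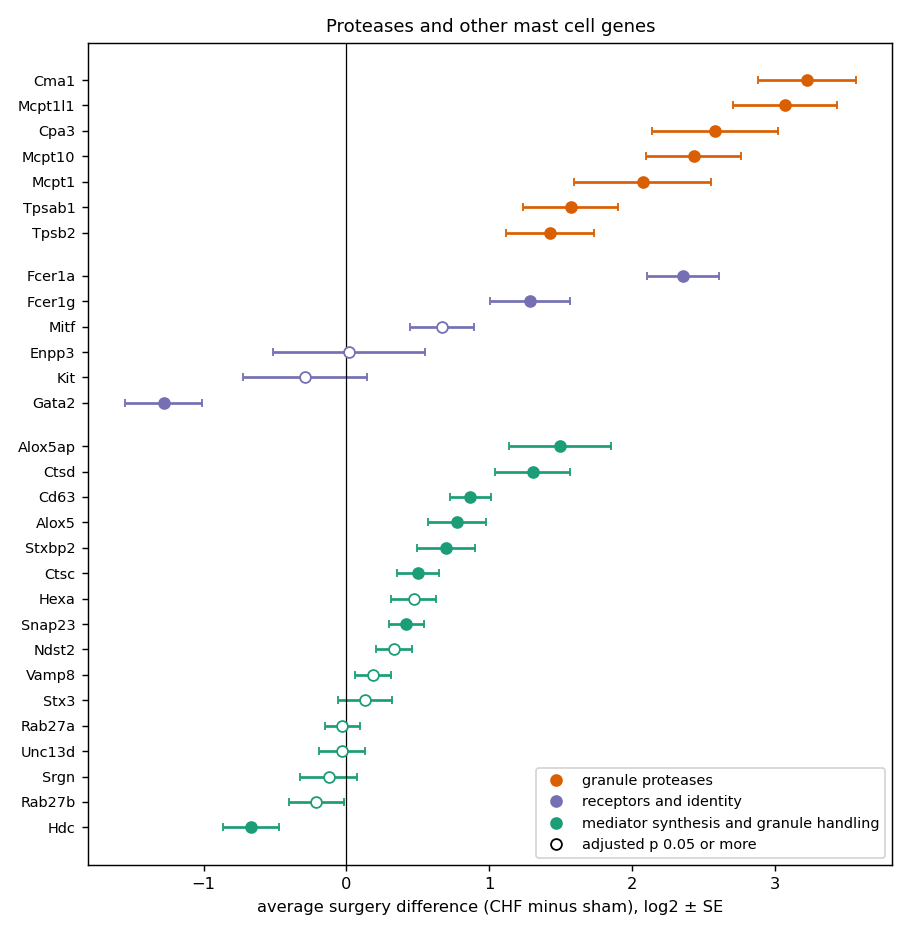
Average surgery effect (x axis, log2 difference with SE from the limma fit) of the 7 protease genes, of 6 mast cell receptor and identity genes and of 16 genes of mediator synthesis and granule handling; filled points have an adjusted p under 0.05. Fcer1a, at 2.35, lies in the range of the proteases, Gata2 and Hdc have filled points below 0, and Kit has an open point.

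Genes that make, load or release granule contents had a smaller median surgery difference than the proteases. Of 21 listed 19 are on the array and 16 were kept. None passed in CHF against Sham lungs, where 6 of the 16 had an unadjusted p under 0.05, beside 20.1% of all probe sets. In the average surgery effect 7 of the 16 rose, beside 11% of all, and 1, Hdc, fell, beside 9.92%. Ctsc, cathepsin C, which activates granule serine proteases, rose by 0.50 ± 0.15 (limma adjusted p = 0.0342), and Alox5ap and Alox5, of leukotriene synthesis, rose by 1.50 ± 0.36 and 0.77 ± 0.20 (limma adjusted p = 0.0178 and 0.0231). The granule membrane protein gene Cd63 rose by 0.87, the protease gene Ctsd by 1.30, and the exocytosis genes Snap23 and Stxbp2 by 0.42 and 0.70. Several of these genes are also active in macrophages. Their median was 0.38, against 2.43 for the members.

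Among 31 listed substrates, receptors and inhibitors of the proteases 28 are on the array and 16 were kept. None of the 16 passed in CHF against Sham lungs, where 0.145% of all probe sets were called higher. In the average surgery effect 4 of the 16 rose, beside 11% of all probe sets, and 2 fell, beside 9.92%. Timp1, an inhibitor of matrix metalloproteases, rose by 2.09 ± 0.20 (limma adjusted p = 0.00059), and Serpinb1a, a serpin that inhibits chymase-like proteases, by 0.93 ± 0.18 (limma adjusted p = 0.00867). Fn1, encoding fibronectin, rose by 0.77 and Tgfb1 by 0.88. Serpina1, encoding α1-antitrypsin, fell by 2.31 ± 0.50 (limma adjusted p = 0.0129), and Ece1, the endothelin-converting enzyme, fell by 0.59. On ketotifen, Timp1 and Mmp2 were higher in CHF+Keto than in CHF lungs by 1.69 and 0.86 (limma adjusted p = 0.0157 and 0.0331), in the comparison that called no protease gene.

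The 10 genes whose profile over the 12 arrays was most like the mean of the members over all named genes, by Pearson's r, were Fcer1a (r = 0.959), Hbb (0.942), Alox5 (0.900), Fndc3b (0.892), Appbp2 (0.888), Fcgr2b (0.888), Car2 (0.880), Slc35a3 (0.873), Cd99 (0.871) and Ctsl (0.867). Cd99 varied little, with group means from 3.98 to 4.01. Hbb, a β-globin gene of red blood cells, averaged 12.86 in CHF+Keto, 13.77 in CHF, 10.28 in Sham+Keto and 8.43 in Sham lungs. All 12 arrays share the same groups, so these r describe the arrays and no more.

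Markers of red cells and macrophages were higher with heart failure as well. Hbb rose in the average surgery effect by 3.97 (limma adjusted p = 0.00171), and the other kept red cell gene, Alas2, passed the filter only through clipped lungs. The red cell list (4 genes on the array, 2 kept) had a mean log2 level of 5.84 to 6.04 in CHF+Keto, 5.50 to 7.52 in CHF, 4.49 to 5.27 in Sham+Keto and 3.90 to 4.46 in Sham lungs. The macrophage list (10 genes, 8 called higher in the average surgery effect, beside 11% of all probe sets) stood at 8.98 to 9.50 in CHF+Keto, 8.17 to 9.12 in CHF, 7.42 to 7.73 in Sham+Keto and 6.22 to 7.89 in Sham lungs. The 8 listed mast cell genes without proteases (4 kept) stood at 4.41 to 4.95 in CHF+Keto, 4.55 to 5.61 in CHF, 4.64 to 4.88 in Sham+Keto and 4.31 to 4.51 in Sham lungs. This mean pools Fcer1a, which rose, with Gata2 and Hdc, which fell, and with genes near background. The part of these cell types in the protease differences was not tested.

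The tissue label fits its markers, since 10 of 10 lung epithelial genes were kept, with a mean log2 level between 12.43 and 13.61. Arrays also differed in other tissue. Ciliated cell genes (5 genes) had a mean log2 level of 5.65 to 5.92 in CHF+Keto, 5.52 to 6.40 in CHF and 6.73 to 7.10 in Sham+Keto lungs, and of 6.26, 9.63 and 8.44 in Sham lungs, so that Sham rat 1 lay within the CHF range. Club cell genes (6 genes, 5 called lower in the average surgery effect, beside 9.92% of all probe sets) stood at 7.10 to 7.82 in CHF+Keto, 8.05 to 9.77 in CHF, 9.04 to 11.24 in Sham+Keto and 9.18 to 12.13 in Sham lungs. The heart muscle genes (10 genes) had a mean level of 2.45 to 2.62 in clipped lungs, against 4.91 in Sham+Keto rat 1, 7.50 in Sham+Keto rat 2 and 6.23 in Sham rat 3. The β-actin 3′ minus 5′ difference, a sign of RNA quality, was 2.94, 3.41 and 2.90 in CHF+Keto, 3.01, 3.16 and 3.40 in CHF, 2.91, 4.52 and 3.30 in Sham+Keto, and 3.45, 4.23 and 3.90 in Sham lungs. CHF+Keto rats 1 and 3 were the closest pair of arrays (r = 0.993). Whether these differences had a part in the protease values was not tested, beyond the counts without the arrays given above.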

How the data were processed

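Total RNA of 12 whole lungs, 3 rats per group, was hybridised to Affymetrix rat genome-wide arrays, 1 array per rat. For every probe set the authors deposited a log2 value. The submitters' processing notes name GCRMA and R (version 2.5.0). GCRMA corrects background by probe sequence, so low signals gather near a log2 value of 2 to 4 and folds that start there are uncertain. Arrays carry no read depth, and the 3 arrays of a group limit the precision. Of 31099 probe sets 57 controls were left out, and 16536 with a log2 value of at least 4 in at least 3 of 12 arrays were tested. Symbols came from the platform annotation (20826 probe sets with 1 symbol, 436 with several, 9780 with none). Group means were fitted with limma 3.58.1 in R 4.3.3 (lmFit, eBayes with an intensity trend) on all 12 arrays, two-sided, with Benjamini-Hochberg adjustment over all probe sets tested, in 6 comparisons. The code was tested on simulated data. All members were named with all 12 values. Of the lists of mast cell genes and related factors, genes called in CHF against Sham or in the average surgery effect were named, with a few others. Cell type marker lists were given mainly as means and counts, and genes of small p in other comparisons were not all named. Likeness was Pearson's r with the mean of the members' standardized profiles, 1 probe set per gene. The members and lists were chosen with earlier results of these data known. Alternatives changed the filter, moderation, normalization, array weights, the arrays used and a block for the replicate number. Promoters were taken from RefSeq (GRCr8), and pairs were aligned with Biopython 1.88.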

Additional observations from a re-analysis of the deposited data

How the results depend on the processing

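All 7 members were called in the average surgery effect in each of the 12 fits that left out 1 array, and with no filter, no intensity trend, robust moderation, quantile normalization, median centring, array weights, the replicate block and CHF+Keto arrays 1 and 3 averaged. With a filter at a log2 value of 6, 5 members were kept and 5 were called. Without the 3 arrays of largest 3′ minus 5′ difference the counts were 2 for the average effect, 0 for CHF against Sham and 1 for CHF+Keto against Sham+Keto. Without the 2 arrays of highest ciliated signal they were 4, 0 and 2, and without the 3 arrays with heart muscle signal 1, 0 and 0. Fewer sham arrays enter these fits.

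For CHF against Sham (4 called) the count was 1 with no filter, 0 with only the arrays compared, 7 with array weights, 1 with CHF+Keto arrays 1 and 3 averaged, and 0 to 7 when single arrays were left out. Leaving out single arrays gave 0 to 0 for CHF+Keto against CHF, 2 to 2 for CHF+Keto against Sham+Keto, 0 to 1 for Sham+Keto against Sham and for the interaction, and 7 to 7 for the average effect. With array weights (0.377 to 3.72) the counts were 2 for CHF+Keto against CHF, 3 for CHF+Keto against Sham+Keto, 1 for Sham+Keto against Sham and 2 for the interaction; the cause was not tested. The sign of Mcpt1l1 in CHF+Keto minus CHF (0.25) turned to -0.22 without CHF+Keto replicate 1, in a range of -0.22 to 0.80 over single arrays left out, and to -0.017 with CHF+Keto arrays 1 and 3 averaged. Of 1024 recomputed log2 differences of single members, 948 kept direction and call, 59 lost the call, 15 gained one and 2 turned. The counts of members called are not part of this tally.

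Same-numbered arrays did not pair: over 18 such pairs r of the deviations ran from -0.347 to 0.263, 5 were over 0.1, and 3 of 12 arrays correlated best with their own number. With the replicate block 3 members were called in CHF against Sham (Cpa3 was not, limma adjusted p = 0.0632), 2 in CHF+Keto against Sham+Keto and 7 in the average effect. Using every probe set of a gene could not be tried, since each member has 1, and fits of only the compared arrays give no interaction or average effect.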

Other observations

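Growth and recruitment factors of mast cells changed in both directions. Of 19 listed genes 16 are on the array and 10 were kept, and in the average surgery effect 3 of the 10 rose, beside 11% of all probe sets, and 2 fell, beside 9.92%. None of the 10 passed in CHF against Sham lungs, where 0.145% of all probe sets were called higher. Tslp, an epithelial cytokine that acts on mast cells, rose by 1.66 ± 0.31 (limma adjusted p = 0.0075), though it reached a log2 value of 4 on 5 arrays, all of clipped rats, and so passed the filter only through the groups where it is high. The increase was 1.59 ± 0.46 for the chemokine receptor gene Ccr1 (limma adjusted p = 0.0324) and 4.11 ± 0.22 for the chemokine gene Ccl2 (limma adjusted p = 7.01e-06). Ccl2 was higher by 5.65 in CHF+Keto than in CHF lungs (limma adjusted p = 9.38e-06), and its surgery difference was wider on ketotifen by 4.83 (limma adjusted p = 0.000901), a test that called no protease gene.

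Kitlg, encoding stem cell factor, the main growth factor of mast cells, fell by 0.92 ± 0.21 on average (limma adjusted p = 0.0156). Its log2 signal was 9.63, 8.74 and 9.42 in CHF+Keto lungs, 9.71, 10.68 and 10.98 in CHF lungs, 10.97, 11.06 and 10.90 in Sham+Keto lungs, and 10.62, 10.68 and 10.45 in Sham lungs. The CHF+Keto lungs were the 3 lowest, while CHF lungs spanned the Sham values. Il33, encoding an alarmin that activates mast cells, fell by 1.65 ± 0.34 (limma adjusted p = 0.0106). Its log2 signal was 9.60, 9.29 and 9.68 in CHF+Keto lungs, 9.43, 11.42 and 11.85 in CHF lungs, 12.04, 12.26 and 11.69 in Sham+Keto lungs, and 11.94, 11.47 and 11.75 in Sham lungs. CHF rat 1 lay among the CHF+Keto lungs for Il33, and the other two CHF rats lay near the sham-operated rats.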
